A study of Mus musculus with 12 samples.

Results

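The genes described here make, sense and move lipids in the cell: the enzymes of sterol synthesis, the proteins that sense sterols, the pumps that export cholesterol, and the enzymes of fatty acid synthesis. The set holds 38 named genes and was chosen by gene symbol, with the probe set of the highest mean over all arrays for each gene. Of these, 36 were measured among 19938 genes with a probe set of their own, and Acat2 and Nr1h2 were not analysed here. The measured genes fell into 17 enzymes of sterol synthesis, 6 sensors and regulators, 3 genes of sterol transport and efflux, and 10 genes of acetyl-CoA supply and fatty acid synthesis.

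Naive CD4 T cells were taken from C57BL/6 mice of 2 genotypes: transgenic for PP2Ac (Tg), the catalytic subunit of protein phosphatase 2A, and wild type (WT). Cells of each genotype were left unstimulated (0 h) or were stimulated for 6 h or 24 h with soluble antibodies to CD3 (0.25 ug/mL) and CD28 (0.5 ug/mL) over a plate-bound antibody to hamster immunoglobulin. No group was kept unstimulated for 6 h or 24 h, so effects of stimulation and of time in culture cannot be told apart. Each of the 6 groups (Tg at 0, 6 and 24 h, and WT at 0, 6 and 24 h) had 2 one-colour arrays, 1 of which carries the mark Rep in its title. In every list of values below, the array marked Rep comes second. The labels give neither the promoter that drives the transgene nor the age or number of the mice, and they do not say whether the 2 arrays of a group came from separate mice or cultures. The p-values therefore measure the spread between these arrays, which may be technical.

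Sterol synthesis starts from acetyl-CoA, runs through mevalonate and squalene, and ends in cholesterol. When sterols in the endoplasmic reticulum are low, the escort protein SCAP carries the membrane-bound SREBP transcription factors to the Golgi, where they are cut, and the released parts switch on the synthesis genes. INSIG proteins hold SCAP back when sterols are plentiful. Oxysterols, which build up when cholesterol is in excess, activate the LXR nuclear receptors, whose targets export cholesterol and curb its uptake. A T cell that leaves its resting state needs membrane lipid to grow and divide, and in mouse T cells antigen receptor signals are known to raise SREBP activity and lower LXR activity.

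Promoter sequences from RefSeq (assembly GRCm38.p6), which cover the 250 bases before and the 50 bases after a transcription start, were found for 28 of the 36 genes, with 36 windows. They are shown because the synthesis genes share letters in this window. Capitals mark matches, on either strand, to CCAAT, the core of the NF-Y motif, in all but the Abca1 window. In the windows of Hmgcs1 and Insig1 they also mark matches to CACNCCAC, a core of the sterol regulatory element (SRE). In the Abca1 window they mark CACGTG, an E-box. The Insig1 window also holds CACGTG, which is left in lower case there. Each window is written 5′ to 3′ on the strand of its gene.
Hmgcs1, chr13:119690101-119690400, plus strand: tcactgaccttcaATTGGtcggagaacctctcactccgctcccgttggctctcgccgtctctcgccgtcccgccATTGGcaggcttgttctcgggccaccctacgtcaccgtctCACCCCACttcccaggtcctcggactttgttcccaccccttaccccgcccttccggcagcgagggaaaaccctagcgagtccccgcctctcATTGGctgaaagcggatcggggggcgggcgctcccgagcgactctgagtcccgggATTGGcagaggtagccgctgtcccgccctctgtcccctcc
Idi1, chr13:8885356-8885655, plus strand: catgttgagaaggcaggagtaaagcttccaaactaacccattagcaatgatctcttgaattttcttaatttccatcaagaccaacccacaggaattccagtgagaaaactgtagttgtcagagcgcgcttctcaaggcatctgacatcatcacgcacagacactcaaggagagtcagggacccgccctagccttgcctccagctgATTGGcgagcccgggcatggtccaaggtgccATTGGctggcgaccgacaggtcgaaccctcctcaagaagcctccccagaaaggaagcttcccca
Cyp51, chr5:4104648-4104947, minus strand: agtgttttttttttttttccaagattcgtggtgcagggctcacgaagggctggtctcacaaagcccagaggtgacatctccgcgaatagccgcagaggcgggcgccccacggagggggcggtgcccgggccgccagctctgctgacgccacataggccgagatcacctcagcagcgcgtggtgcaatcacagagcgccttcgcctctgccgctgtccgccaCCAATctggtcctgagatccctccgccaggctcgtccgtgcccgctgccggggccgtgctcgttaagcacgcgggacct
Insig1, chr5:28071162-28071461, plus strand: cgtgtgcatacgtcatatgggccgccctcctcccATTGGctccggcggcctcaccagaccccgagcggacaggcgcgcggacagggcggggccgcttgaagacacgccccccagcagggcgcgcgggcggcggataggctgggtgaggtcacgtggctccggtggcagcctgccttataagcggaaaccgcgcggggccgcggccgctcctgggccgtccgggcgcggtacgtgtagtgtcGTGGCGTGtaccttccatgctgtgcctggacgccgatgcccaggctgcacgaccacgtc
Fasn, chr11:120824498-120824797, minus strand: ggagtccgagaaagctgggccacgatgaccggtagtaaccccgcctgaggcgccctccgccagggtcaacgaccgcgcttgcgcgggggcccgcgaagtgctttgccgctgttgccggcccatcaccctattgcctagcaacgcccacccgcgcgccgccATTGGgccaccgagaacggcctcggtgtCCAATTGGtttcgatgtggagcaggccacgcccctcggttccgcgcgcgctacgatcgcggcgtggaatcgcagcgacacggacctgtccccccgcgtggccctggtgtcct
Abca1, chr4:53159846-53160145, minus strand: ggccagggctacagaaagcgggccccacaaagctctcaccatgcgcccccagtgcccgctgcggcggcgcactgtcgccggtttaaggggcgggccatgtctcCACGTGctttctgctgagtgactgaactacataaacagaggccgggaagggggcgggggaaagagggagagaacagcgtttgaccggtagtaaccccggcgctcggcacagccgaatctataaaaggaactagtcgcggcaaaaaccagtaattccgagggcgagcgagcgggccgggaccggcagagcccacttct

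The NF-Y core was present in 14 of the 17 windows of sterol synthesis enzymes, covering each of the 14 enzymes with a window, against 37.4% of all 32851 windows in the RefSeq table. The Sp1 motif GGGCGG was present in 14 of these 17 windows, against 35.7% of all windows. The SRE core was found in 2 of the 36 windows, those of Hmgcs1 and Insig1, a share near the 6.24% of all windows. The search counted exact matches to CACNCCAC alone, so it does not show that the other windows lack such elements. Among the 7 windows of fatty acid genes, 3 held the NF-Y core, and in Fasn 2 of its 3 matches overlap on opposite strands. The core was also in 6 of the 11 windows of sensors and regulators. Genes that fell after stimulation held it too, with 3 matches in Mylip and 1 in Acss2. The E-box was in 7 of the 36 windows, against 7.15% of all windows. These matches describe the letters of the windows and are not evidence of binding.

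Values are on the log2 scale of the deposited table after quantile normalisation between arrays, so a difference of 1 is a doubling. Genes were tested with limma in 1 fit of all 12 arrays, errors of differences are the standard errors (SE) of that fit, and a gene is said to have risen or fallen where its Benjamini-Hochberg adjusted p over 23410 probe sets was under 0.05. Ppp2ca, which encodes PP2Ac, read 13.69 to 13.90 on the 6 Tg arrays and 13.15 to 13.42 on the 6 WT arrays. Averaged over times it was 0.57 ± 0.05 higher in Tg cells (limma adjusted p = 0.0044). At no single time did Ppp2ca pass the test. Its differences were 0.74 ± 0.08 at 0 h (limma adjusted p = 0.055), 0.38 ± 0.08 at 6 h and 0.60 ± 0.08 at 24 h (limma adjusted p = 0.28). The mean of 8 CD4 T cell markers, Cd4 and the CD3 chains among them, lay between 12.87 and 13.29 on all 12 arrays, and the mean of 4 activation markers was higher at 6 h and 24 h than at 0 h in both genotypes. The mean of 9 neutrophil markers stood apart between the arrays: it was 10.19 to 12.34 on the Tg arrays, 11.28 to 12.39 on the unmarked WT arrays, and 7.82 to 8.90 on the WT arrays marked Rep. The mean of 7 monocyte and macrophage markers was 10.05 to 10.59 on the Tg arrays, 10.28 to 10.62 on the unmarked WT arrays, and 8.52 to 9.01 on the WT arrays marked Rep. S100a9, a defining neutrophil gene, had its lowest value, 7.95, on the WT 24 h array marked Rep. On that array the 9 neutrophil markers ran from 6.64 (Ltf) to 9.41 (Lcn2). The medians of the arrays as deposited were 7.39 to 7.50, and signal over background was not analysed here. None of the 9 neutrophil markers and none of the 7 monocyte markers passed the test between genotypes at any time. Over time, the mean of 5 B cell markers was 10.74 to 11.03 at 0 h, 9.58 to 10.35 at 6 h and 10.46 to 11.00 at 24 h over both genotypes, with 2 of the 5 lower at 6 h in each genotype by the test. The mean of 6 dendritic cell markers was 7.23 to 7.83 at 0 h, 6.95 to 7.30 at 6 h and 6.66 to 7.03 at 24 h, and 3 of the 6 fell at 24 h against 0 h in each genotype. Of 5 NK cell markers, 2 fell at 24 h against 0 h in Tg cells and 1 in WT cells, and the lowest difference was -2.15 in Tg cells and -2.41 in WT cells. Both erythroid markers fell at 24 h in Tg cells, with a median difference of -2.08, and 1 of them fell in WT cells. Of 2 CD8 T cell markers, 1 rose at 24 h in Tg cells, by 1.88. In WT cells neither passed the test at 24 h, and the largest difference was 1.39. The neutrophil markers had median differences at 24 h against 0 h of -1.40 in Tg cells and -1.06 in WT cells, and none of the 9 passed the test. The part of these other cells in the time courses was not tested. In bulk RNA of this kind, fewer cells of a type and less RNA per cell cannot be told apart.

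**Figure D1:**
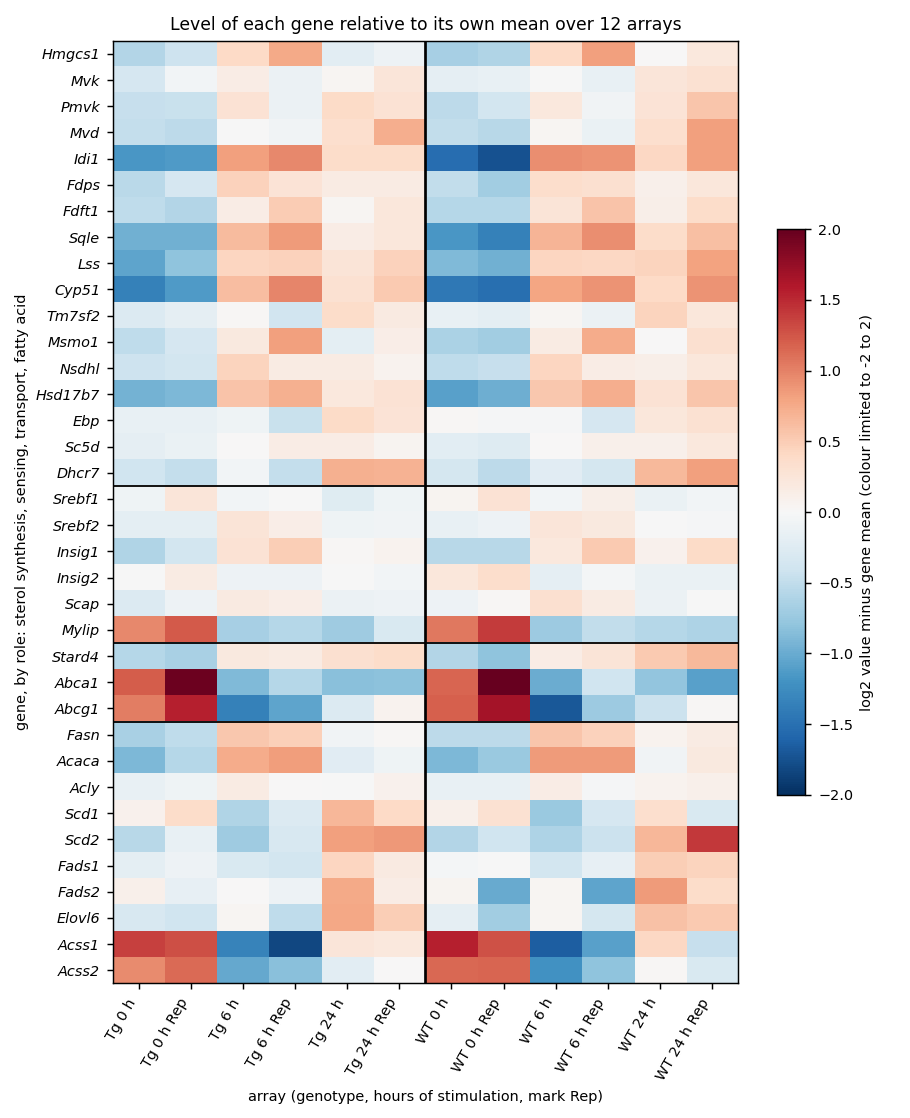
Heat map of 36 genes (rows, by role) on 12 arrays (columns, Tg arrays left of WT arrays, by hours of stimulation and mark Rep). Colour gives the log2 value minus the gene's own mean over the 12 arrays, with the colour limited to -2 to 2. Most sterol synthesis rows are blue at 0 h and red at 6 h and 24 h, while Mylip, Abca1, Abcg1, Acss1 and Acss2 are red at 0 h.

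At 6 h of stimulation most of the measured sterol synthesis enzymes had risen against 0 h in both genotypes. These ran from Hmgcs1 near the start of the pathway to the enzymes that trim the sterol ring. Dhcr7, at its end, was not among them. At 6 h against 0 h, 11 of the 17 enzymes rose in Tg cells and 12 of 17 rose in WT cells, with none lower. The median difference of the 17 enzymes was 0.81 in Tg cells and 0.93 in WT cells, where the median of all probe sets tested was 0.00 in Tg cells and -0.01 in WT cells. Over all 36 genes, 17 rose and 5 fell in Tg cells, while 12.5% of all probe sets tested rose and 12.9% fell. In WT cells 17 of the 36 rose and 7 fell, against 12.6% and 13.9% of all probe sets tested. The same 16 genes rose in both genotypes and the same 5 fell in both.

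Idi1, the isomerase that makes the reactive isoprene unit, had the largest rise of the set at 6 h. Its values in Tg cells were 9.75 and 9.77 at 0 h, 11.73 and 11.87 at 6 h, and 11.27 and 11.27 at 24 h. In WT cells they were 9.38 and 9.17 at 0 h, 11.84 and 11.81 at 6 h, and 11.33 and 11.73 at 24 h. All stimulated arrays lay above all unstimulated arrays. At 6 h against 0 h the difference was 2.04 ± 0.13 in Tg cells, a 4.11-fold rise (limma adjusted p = 1.8e-05), and 2.55 ± 0.13 in WT cells, a 5.86-fold rise (limma adjusted p = 1.0e-05).

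Cyp51, the lanosterol demethylase, read 9.05 and 9.27 at 0 h, 11.02 and 11.37 at 6 h, and 10.70 and 10.92 at 24 h in Tg cells. In WT cells it read 8.97 and 8.89 at 0 h, 11.19 and 11.29 at 6 h, and 10.80 and 11.30 at 24 h. Here too no stimulated array overlapped an unstimulated one. The rise at 6 h was 2.03 ± 0.18 in Tg cells (limma adjusted p = 6.4e-05) and 2.31 ± 0.18 in WT cells (limma adjusted p = 3.5e-05).

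Sqle, squalene epoxidase, had values of 9.78 and 9.78 at 0 h, 11.38 and 11.60 at 6 h, and 10.89 and 10.97 at 24 h in Tg cells. The WT values were 9.58 and 9.40 at 0 h, 11.42 and 11.68 at 6 h, and 11.12 and 11.35 at 24 h. The 6 h arrays were the highest in each genotype, and the 24 h arrays lay between them and the 0 h arrays. The difference at 6 h was 1.71 ± 0.13 in Tg cells (limma adjusted p = 3.5e-05) and 2.06 ± 0.13 in WT cells (limma adjusted p = 1.6e-05).

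Lss, which closes squalene epoxide into lanosterol, was at 9.32 and 9.57 at 0 h, 10.81 and 10.84 at 6 h, and 10.64 and 10.84 at 24 h in Tg cells. In WT cells Lss was at 9.49 and 9.42 at 0 h, 10.81 and 10.79 at 6 h, and 10.82 and 11.19 at 24 h. The stimulated arrays lay well above the 0 h arrays at both times. Its 24 h rise was 1.29 ± 0.13 in Tg cells (limma adjusted p = 0.00034) and 1.55 ± 0.13 in WT cells (limma adjusted p = 0.00011).

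Hmgcs1 encodes the cytosolic synthase that commits acetyl-CoA units to the mevalonate pathway. Its values were 10.52 and 10.69 at 0 h, 11.50 and 11.87 at 6 h, and 10.89 and 11.00 at 24 h in Tg cells. The WT values were 10.44 and 10.50 at 0 h, 11.51 and 11.93 at 6 h, and 11.11 and 11.32 at 24 h. The 6 h arrays stood above all others in both genotypes. The 6 h rise was 1.08 ± 0.16 in Tg cells (limma adjusted p = 0.001) and 1.25 ± 0.16 in WT cells (limma adjusted p = 0.00045).

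Of the other enzymes, Fdps (farnesyl diphosphate synthase), Fdft1 (squalene synthase), Pmvk (phosphomevalonate kinase), and Msmo1, Nsdhl and Hsd17b7, which remove methyl groups from the sterol ring, rose at 6 h in both genotypes. Their differences ran from 0.54 (Pmvk) to 1.57 (Hsd17b7) in Tg cells and from 0.52 (Pmvk) to 1.66 (Hsd17b7) in WT cells. Sc5d, a sterol desaturase, read 0.24 ± 0.08 in Tg cells (limma adjusted p = 0.069) and rose by 0.29 ± 0.08 in WT cells (limma adjusted p = 0.03). Mvk (mevalonate kinase), Mvd (the decarboxylase that follows the 2 kinases), Tm7sf2 (a sterol reductase), Ebp (a sterol isomerase) and Dhcr7 (the reductase of the last step to cholesterol) did not pass the test at 6 h in either genotype.

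**Figure D2:**
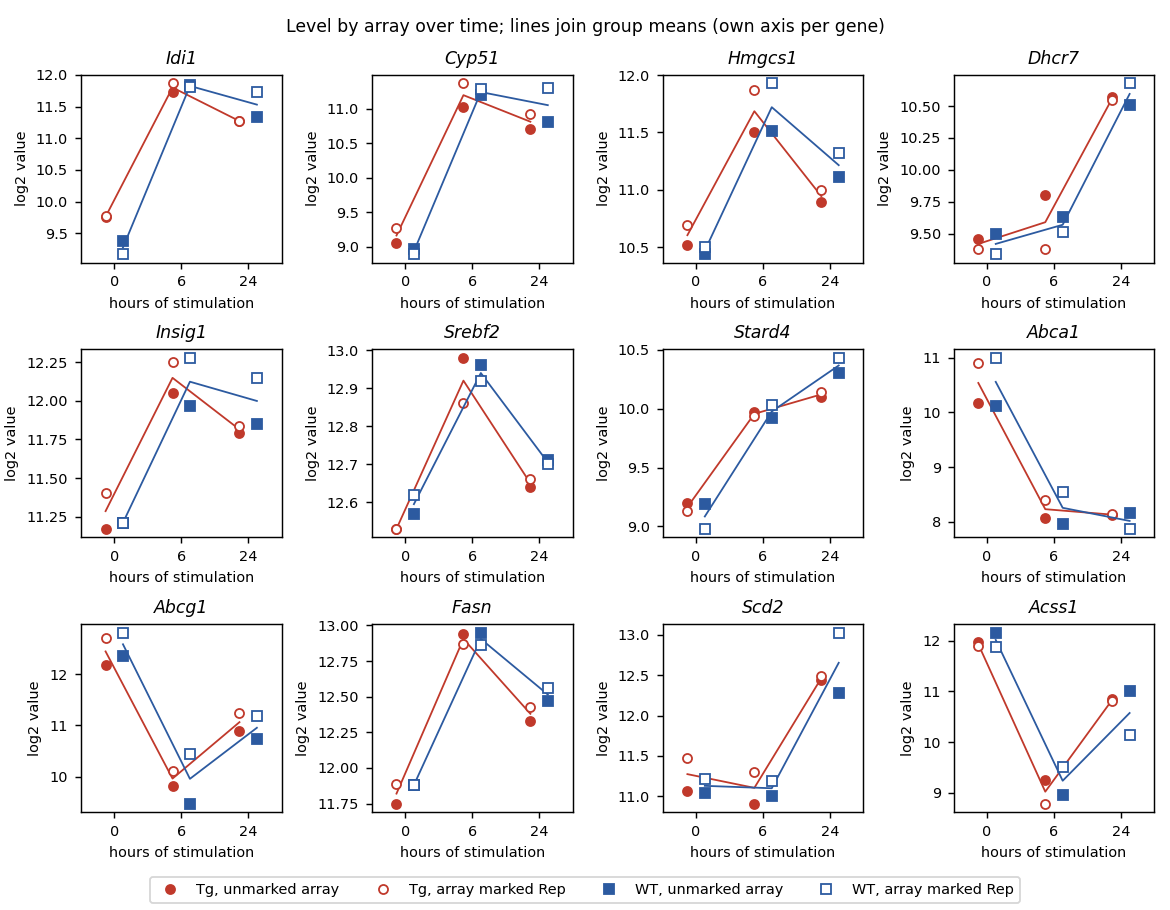
Log2 values by array (y axes, one scale per gene) at 0, 6 and 24 h of stimulation (x axes) for 12 of the genes, with Tg arrays as red circles left of WT arrays as blue squares, open symbols for arrays marked Rep, and lines through group means. Idi1, Cyp51, Hmgcs1, Insig1, Srebf2 and Fasn are highest at 6 h, Dhcr7 and Scd2 are highest at 24 h, Abca1 is low at both stimulated times, and Abcg1 and Acss1 are lowest at 6 h.

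By 24 h the sterol synthesis enzymes were still high. At 24 h against 0 h, 13 of the 17 enzymes rose in Tg cells and 16 of 17 rose in WT cells, and all 17 differences were positive in each genotype, with medians of 0.67 in Tg cells and 0.82 in WT cells. Over the 36 genes, 20 rose and 5 fell in Tg cells, against 12% and 11.8% of all probe sets tested. In WT cells 23 rose and 6 fell, against 12.9% and 13.8%. The comparisons with 0 h at 6 h and at 24 h share the 0 h arrays. Without the 3 WT arrays marked Rep, each WT group held 1 array. Fewer genes then passed the test in WT cells at 24 h against 0 h, among the 36 and among all probe sets tested alike. Those of the 36 that no longer passed were Hmgcs1, Mvk, Fdps, Fdft1, Tm7sf2, Msmo1, Nsdhl, Sc5d, Insig1, Insig2, Fads1 and Elovl6.

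**Figure D3:**
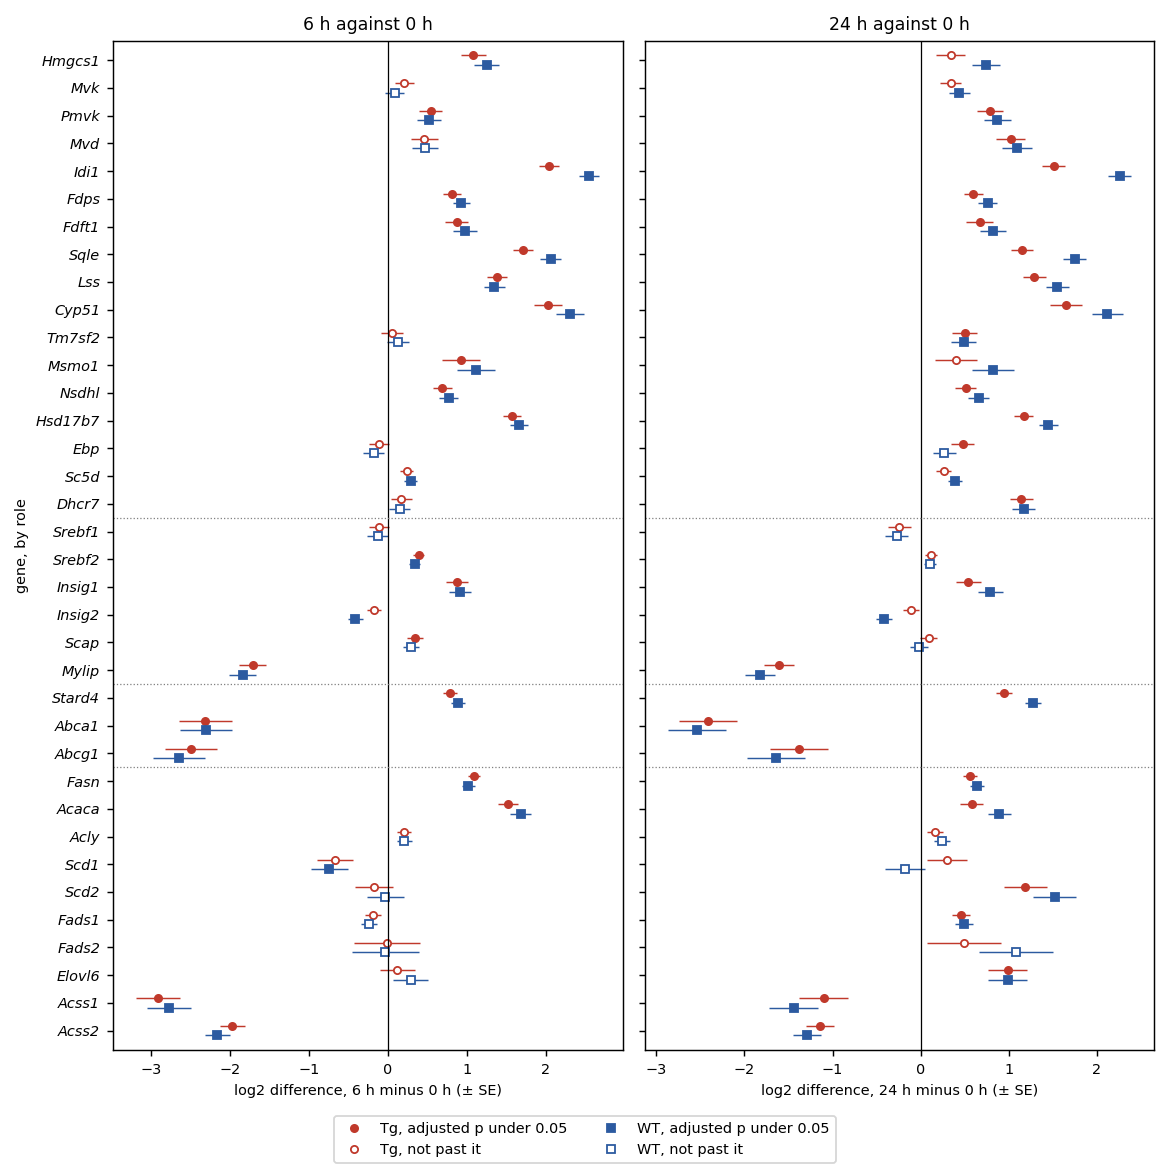
Log2 difference from 0 h (x axes, with SE bars) for the 36 genes (rows, by role) at 6 h and at 24 h, with Tg as red circles above WT as blue squares and filled symbols for adjusted p under 0.05. Idi1 and Cyp51 lie farthest to the right at 6 h, Acss1, Abcg1 and Abca1 lie farthest to the left, and Dhcr7, Scd2 and Elovl6 leave the zero line only at 24 h.

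The enzymes did not all keep 1 time course, as the direct comparison of 24 h with 6 h showed. Dhcr7 rose late in both genotypes. It read 9.46 and 9.38 at 0 h, 9.80 and 9.38 at 6 h, and 10.57 and 10.55 at 24 h in Tg cells, and 9.50 and 9.34 at 0 h, 9.63 and 9.51 at 6 h, and 10.51 and 10.68 at 24 h in WT cells. Only the 24 h arrays stood out. The difference of 24 h from 6 h was 0.97 ± 0.13 in Tg cells (limma adjusted p = 0.0023) and 1.02 ± 0.13 in WT cells (limma adjusted p = 0.0021).

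Mvd had values of 9.42 and 9.38 at 0 h, 9.89 and 9.83 at 6 h, and 10.23 and 10.62 at 24 h in Tg cells. In WT cells they were 9.41 and 9.35 at 0 h, 9.94 and 9.76 at 6 h, and 10.23 and 10.71 at 24 h. Each later time lay above the earlier one without overlap. The difference of 24 h from 6 h was 0.56 ± 0.17 in Tg cells (limma adjusted p = 0.055, and 0.045 with the mark Rep as a block), and Mvd rose by 0.62 ± 0.17 in WT cells (limma adjusted p = 0.04). Leaving out 1 array moved the WT value to between 0.38 (without the 24 h array marked Rep) and 0.86, and the call was lost under 11 alternatives, the fit of the compared groups only among them.

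Ebp had values of 10.49 and 10.50 at 0 h, 10.56 and 10.20 at 6 h, and 11.03 and 10.92 at 24 h in Tg cells. The WT values of Ebp were 10.66 and 10.61 at 0 h, 10.61 and 10.30 at 6 h, and 10.87 and 10.94 at 24 h. The 24 h arrays were the highest in both genotypes. At 24 h against 6 h Ebp rose by 0.60 ± 0.13 in Tg cells (limma adjusted p = 0.017), and it read 0.45 ± 0.13 in WT cells (limma adjusted p = 0.054, and 0.026 with the mark as a block).

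Hmgcs1, Idi1, Sqle and Hsd17b7 fell at 24 h against 6 h in Tg cells, by 0.74, 0.53, 0.56 and 0.40. In WT cells the same differences were -0.51, -0.30, -0.31 and -0.21, and none of them passed the test (Hmgcs1 did with the mark as a block, adjusted p = 0.01). None of the Tg calls named here passed under every alternative. That of Hsd17b7 was lost with the arrays centred on the median and with the compared groups only. The falls were not tested between genotypes. Across the 36 genes, 8 rose and 7 fell at 24 h against 6 h in Tg cells, against 7.89% and 6.42% of all probe sets tested. In WT cells 7 rose and 2 fell, against 7.49% and 5.86%. These counts moved with the fit, and the calls over all probe sets tested moved the same way under the alternatives named here. In WT cells the latter were 3124, with 4298 with the mark as a block and 758 where the fit held the compared groups only. The 15 calls in Tg cells became 8 without the unmarked 24 h array, 9 without the 24 h array marked Rep and 7 without the 6 h array marked Rep. The 9 calls in WT cells became 14 with the mark as a block, 5 without the unmarked 24 h array and 2 where the fit held the compared groups only.

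Of the 6 sensors and regulators, 3 rose and 1 fell at 6 h in Tg cells, where 12.5% of all probe sets tested rose and 12.9% fell. In WT cells 2 rose and 2 fell, against 12.6% and 13.9%. Srebf2 and Insig1 rose and Mylip fell in both genotypes. Srebf2 encodes the SREBP that mainly drives sterol genes. It read 12.53 and 12.53 at 0 h, 12.98 and 12.86 at 6 h, and 12.64 and 12.66 at 24 h in Tg cells, and 12.57 and 12.62 at 0 h, 12.96 and 12.92 at 6 h, and 12.71 and 12.70 at 24 h in WT cells. The 6 h arrays were the highest and the 24 h arrays were close to the 0 h arrays. Its rise at 6 h was 0.39 ± 0.07 in Tg cells (limma adjusted p = 0.0034) and 0.34 ± 0.07 in WT cells (limma adjusted p = 0.0067). Srebf1, which encodes the SREBP forms that mainly serve fatty acid genes, passed the test in none of the 6 comparisons of times, with differences from -0.27 to -0.11 (WT at 24 h against 0 h had an adjusted p of 0.047 with the mark as a block).

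Insig1, itself a target of SREBP, read 11.17 and 11.40 at 0 h, 12.05 and 12.25 at 6 h, and 11.79 and 11.84 at 24 h in Tg cells. The WT arrays read 11.21 and 11.21 at 0 h, 11.97 and 12.28 at 6 h, and 11.85 and 12.15 at 24 h. No stimulated array overlapped the 0 h arrays. Insig1 rose at 6 h by 0.87 ± 0.14 in Tg cells (limma adjusted p = 0.0015) and by 0.91 ± 0.14 in WT cells (limma adjusted p = 0.0011).

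Insig2, the other INSIG gene, read 10.07 and 10.24 at 0 h, 9.98 and 9.97 at 6 h, and 10.07 and 10.02 at 24 h in Tg cells. In WT cells it read 10.31 and 10.43 at 0 h, 9.89 and 10.04 at 6 h, and 9.94 and 9.95 at 24 h. The WT 0 h arrays were the highest. Insig2 fell by 0.41 ± 0.09 at 6 h in WT cells (limma adjusted p = 0.0088), and the difference in Tg cells was -0.18 ± 0.09 (limma adjusted p = 0.2). A test of the difference between these responses, 0.22 ± 0.13, gave a limma adjusted p of 1.

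Scap, the SREBP escort, read 11.64 and 11.82 at 0 h, 12.10 and 12.04 at 6 h, and 11.80 and 11.82 at 24 h in Tg cells. The WT arrays read 11.81 and 11.93 at 0 h, 12.24 and 12.08 at 6 h, and 11.79 and 11.90 at 24 h. The 6 h arrays were the highest in both genotypes. The difference at 6 h was 0.34 ± 0.10 in Tg cells (limma adjusted p = 0.028) and 0.29 ± 0.10 in WT cells (limma adjusted p = 0.052).

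The genes that export cholesterol or curb its uptake went the other way. Abca1, a pump that passes cholesterol to apolipoprotein and a classical LXR target, read 10.17 and 10.91 at 0 h, 8.07 and 8.39 at 6 h, and 8.12 and 8.14 at 24 h in Tg cells. In WT cells Abca1 read 10.12 and 11.00 at 0 h, 7.96 and 8.55 at 6 h, and 8.16 and 7.87 at 24 h. The unstimulated arrays were far above the stimulated ones, and at 0 h the arrays marked Rep were the higher ones in both genotypes. Abca1 fell at 6 h by 2.31 ± 0.33 in Tg cells (limma adjusted p = 0.00078) and by 2.30 ± 0.33 in WT cells (limma adjusted p = 0.00076), a drop of 4.95-fold in Tg cells and 4.94-fold in WT cells.

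Abcg1, a second LXR-driven pump, read 12.18 and 12.72 at 0 h, 9.81 and 10.11 at 6 h, and 10.89 and 11.24 at 24 h in Tg cells. In WT cells it read 12.36 and 12.82 at 0 h, 9.47 and 10.44 at 6 h, and 10.73 and 11.18 at 24 h. Its 6 h arrays were the lowest, and its 24 h arrays lay between those of 6 h and 0 h. The fall at 6 h was -2.49 ± 0.33 in Tg cells (limma adjusted p = 0.00051) and -2.64 ± 0.33 in WT cells (limma adjusted p = 0.00037). At 24 h against 6 h the difference was 1.11 ± 0.33 in Tg cells (limma adjusted p = 0.055, and 0.0016 with the mark as a block) and 1.0 ± 0.33 in WT cells (limma adjusted p = 0.08, and 0.0027 with the block).

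Mylip, an LXR target whose product marks lipoprotein receptors for degradation, read 12.01 and 12.28 at 0 h, 10.39 and 10.48 at 6 h, and 10.33 and 10.75 at 24 h in Tg cells. Its WT values were 12.10 and 12.45 at 0 h, 10.32 and 10.56 at 6 h, and 10.48 and 10.43 at 24 h. The stimulated arrays were all below the 0 h arrays. At 6 h Mylip fell by 1.71 ± 0.17 in Tg cells (limma adjusted p = 0.00011) and by 1.84 ± 0.17 in WT cells (limma adjusted p = 7.8e-05).

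Since macrophages also express the pumps, the values of Abca1 were set beside the neutrophil and monocyte markers. In WT cells its difference at 6 h was -2.45 over the arrays marked Rep, where those markers were low, and -2.16 over the unmarked arrays, where they were high. In Tg cells it was -2.52 over the arrays marked Rep and -2.09 over the unmarked ones. The WT difference at 24 h against 0 h was -3.13 over the arrays marked Rep and -1.95 over the unmarked ones, and that in Tg cells was -2.77 over those marked Rep and -2.05 over the unmarked ones. The part of myeloid cells in the fall of Abca1 was not tested. Stard4, which carries cholesterol between membranes inside the cell, moved with the synthesis enzymes and not with the pumps. Its values were 9.20 and 9.13 at 0 h, 9.97 and 9.94 at 6 h, and 10.10 and 10.14 at 24 h in Tg cells, and 9.19 and 8.98 at 0 h, 9.92 and 10.03 at 6 h, and 10.30 and 10.43 at 24 h in WT cells. The arrays of the 3 times did not overlap. Stard4 rose at 24 h by 0.95 ± 0.09 in Tg cells (limma adjusted p = 0.0003) and by 1.28 ± 0.09 in WT cells (limma adjusted p = 6.7e-05).

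The fatty acid genes did not share 1 time course. Fasn and Acaca, which build the chain, rose at 6 h and fell at 24 h against 6 h. Scd2, Fads1 and Elovl6 rose at 24 h against 0 h in both genotypes, while Scd1 and Fads2 did not pass that test in either. Acss1 and Acss2, which make acetyl-CoA from acetate, fell at 6 h and were less far below their 0 h level at 24 h. Of the 10 genes, 2 rose and 2 fell at 6 h in Tg cells and 2 rose and 3 fell in WT cells, where between 12.5% and 13.9% of all probe sets tested rose or fell, so the share that rose was near that of all probe sets. Later, at 24 h against 0 h, 5 rose and 2 fell in each genotype, against 12% and 11.8% of all probe sets in Tg cells and 12.9% and 13.8% in WT cells. Fasn, the fatty acid synthase, read 11.75 and 11.89 at 0 h, 12.94 and 12.87 at 6 h, and 12.33 and 12.43 at 24 h in Tg cells. The WT arrays read 11.88 and 11.88 at 0 h, 12.95 and 12.86 at 6 h, and 12.47 and 12.56 at 24 h. The 6 h arrays were the highest, and those of 24 h lay between. Fasn rose at 6 h by 1.09 ± 0.08 in Tg cells (limma adjusted p = 4.0e-05) and by 1.02 ± 0.08 in WT cells (limma adjusted p = 4.6e-05), and at 24 h against 6 h it fell by 0.52 ± 0.08 in Tg cells (limma adjusted p = 0.0043) and by 0.39 ± 0.08 in WT cells (limma adjusted p = 0.016).

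Acaca encodes the acetyl-CoA carboxylase that supplies malonyl-CoA to the synthase. It read 9.69 and 10.01 at 0 h, 11.32 and 11.42 at 6 h, and 10.36 and 10.50 at 24 h in Tg cells, and 9.69 and 9.84 at 0 h, 11.44 and 11.43 at 6 h, and 10.51 and 10.78 at 24 h in WT cells. The order of the times was the same as for Fasn. Acaca rose at 6 h by 1.52 ± 0.13 in Tg cells (limma adjusted p = 5.9e-05) and by 1.68 ± 0.13 in WT cells (limma adjusted p = 3.7e-05). Acly, which makes acetyl-CoA from citrate, passed the test in none of the 6 comparisons of times, with differences from -0.04 to 0.24.

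Scd2, a desaturase that adds the first double bond to saturated chains, read 11.07 and 11.48 at 0 h, 10.91 and 11.30 at 6 h, and 12.44 and 12.49 at 24 h in Tg cells. In WT cells it read 11.04 and 11.22 at 0 h, 11.01 and 11.19 at 6 h, and 12.28 and 13.03 at 24 h. Only the 24 h arrays were raised, and the highest was the WT array marked Rep. The difference of 24 h from 6 h was 1.36 ± 0.24 in Tg cells (limma adjusted p = 0.0063) and 1.56 ± 0.24 in WT cells (limma adjusted p = 0.0039).

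Scd1, which catalyses the same step, read 10.98 and 11.26 at 0 h, 10.28 and 10.61 at 6 h, and 11.55 and 11.28 at 24 h in Tg cells. The WT arrays read 10.99 and 11.19 at 0 h, 10.15 and 10.56 at 6 h, and 11.22 and 10.59 at 24 h. The 6 h arrays were the lowest of each genotype, and the WT 24 h array marked Rep was nearly as low. Its difference at 24 h from 0 h was 0.30 in Tg cells and -0.18 in WT cells, neither past the test. Scd1 rose at 24 h against 6 h by 0.97 ± 0.23 in Tg cells (limma adjusted p = 0.022), a call lost without either 6 h array or without the unmarked 24 h array. In WT cells this difference was 0.56 ± 0.23 (limma adjusted p = 0.16), or 1.07 over the unmarked arrays and 0.04 over those marked Rep.

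Elovl6, which lengthens palmitate, read 10.05 and 9.98 at 0 h, 10.41 and 9.87 at 6 h, and 11.15 and 10.87 at 24 h in Tg cells. In WT cells it read 10.19 and 9.68 at 0 h, 10.42 and 10.02 at 6 h, and 10.96 and 10.89 at 24 h. The 24 h arrays were the highest in both genotypes. Its rise at 24 h against 0 h was 0.99 ± 0.22 in Tg cells (limma adjusted p = 0.011) and 0.99 ± 0.22 in WT cells (limma adjusted p = 0.009). Fads1, a desaturase of polyunsaturated chains, rose at 24 h against 6 h by 0.65 in Tg cells and 0.73 in WT cells. Its partner Fads2 passed the test in none of the 6 comparisons of times. With the mark as a block it did in WT cells, at 24 h against 0 h (1.08, adjusted p = 0.0078) and against 6 h (1.11, adjusted p = 0.012).

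Acss1, the acetyl-CoA synthetase of mitochondria, had the largest fall of the set at 6 h. It read 11.97 and 11.89 at 0 h, 9.26 and 8.79 at 6 h, and 10.85 and 10.82 at 24 h in Tg cells, and 12.16 and 11.87 at 0 h, 8.96 and 9.52 at 6 h, and 11.01 and 10.14 at 24 h in WT cells. The arrays of the 3 times were apart in both genotypes. The fall at 6 h was -2.91 ± 0.28 in Tg cells, 7.52-fold (limma adjusted p = 0.00011), and -2.77 ± 0.28 in WT cells, 6.84-fold (limma adjusted p = 0.00013). At 24 h against 6 h Acss1 rose by 1.81 ± 0.28 in Tg cells (limma adjusted p = 0.0039) and by 1.34 ± 0.28 in WT cells (limma adjusted p = 0.015).

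Acss2, the enzyme of the cytosol and nucleus that does the same reaction, read 11.70 and 11.89 at 0 h, 9.73 and 9.92 at 6 h, and 10.55 and 10.76 at 24 h in Tg cells. The WT values of Acss2 were 11.90 and 11.92 at 0 h, 9.55 and 9.95 at 6 h, and 10.78 and 10.45 at 24 h. Here again the 6 h arrays were the lowest and the 24 h arrays lay between. Acss2, known as an SREBP target, thus moved against the synthesis enzymes, with a fall at 6 h of -1.97 ± 0.16 in Tg cells (limma adjusted p = 4.9e-05) and -2.16 ± 0.16 in WT cells (limma adjusted p = 3.2e-05).

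The comparison of Tg with WT cells asked whether more PP2Ac goes with another level of these genes at rest or after stimulation. No member passed the test at 0, 6 or 24 h, averaged over the times, or in either response, and the smallest limma adjusted p of a member was 0.8. Across all probe sets tested, 0.00854% passed at each of the 3 times, 0.0256% passed averaged over times, and none passed for the responses. At an unadjusted p under 0.05, limma gave 3 of the 36 genes at 0 h (Idi1, Sqle and Insig2) with 3.56% of all probe sets, 0 genes at 6 h with 2.61%, and 2 genes at 24 h (Sqle and Stard4) with 4.26%. For the difference in response it gave 1 gene at 6 h (Idi1) with 1.79%, and 4 at 24 h (Idi1, Sqle, Insig2 and Stard4) with 2.67%. Averaged over times it gave 0 genes with 6.34% of all probe sets.

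At 0 h, 8 of the 17 sterol synthesis enzymes lay higher on both Tg arrays than on both WT arrays, namely Hmgcs1, Idi1, Sqle, Cyp51, Msmo1, Nsdhl, Hsd17b7 and Sc5d, while 12.8% of all probe sets tested did so. In this direction none of the other 19 genes did. The 5 genes lower on both Tg arrays were Ebp, Srebf2, Insig2, Fads1 and Acss2, against 20.5% of all probe sets. The median difference of the 17 enzymes, Tg minus WT, was 0.08, beside -0.02 over all probe sets. Idi1 had the largest value, with 9.75 and 9.77 in Tg cells and 9.38 and 9.17 in WT cells. Its difference of 0.48 ± 0.13 (0.37 between the unmarked arrays, 0.60 between those marked Rep) had a limma adjusted p of 1. Sqle differed by 0.29 ± 0.13 and Insig2 by -0.22 ± 0.09, each with a limma adjusted p of 1. The arrays marked Rep also differed in the mean of the 9 neutrophil markers at 0 h, with 11.42 in Tg cells and 8.90 in WT cells, while the unmarked arrays had 12.34 in Tg cells and 12.39 in WT cells. Both erythroid markers were higher in Tg cells at 0 h at an unadjusted p under 0.05, with a median difference of 1.24, as were 3 of the 6 dendritic cell markers, and none passed the test. All 4 T cell activation markers were also higher in Tg cells at 0 h, with a median difference of 0.26 and none past the test. The part of these cells, and of activation, in the values above was not tested.

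At 6 h the median difference of the 17 enzymes, Tg minus WT, was 0.01. No gene was higher on both Tg arrays, and 1 gene, Acaca, was lower, where 11.1% of all probe sets tested were higher and 14.1% lower. The values of the largest moderated statistic were 0.46 ± 0.42 for Fads2, -0.14 ± 0.14 for Tm7sf2, -0.09 ± 0.10 for Scap and -0.22 ± 0.28 for Acss1. Fads2, a desaturase of polyunsaturated chains, read 9.40 and 9.29 at 6 h in Tg cells and 9.43 and 8.33 in WT cells. The WT array marked Rep alone was low, as was that of 0 h, with 9.49 and 9.23 in Tg cells and 9.45 and 8.38 in WT cells. At 24 h it was not: Fads2 read 10.15 and 9.54 in Tg cells and 10.24 and 9.75 in WT cells. The WT arrays marked Rep were low in neutrophil and monocyte markers at 0, 6 and 24 h. The part of these cells in the level of Fads2 was not tested.

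At 24 h most of the differences had the opposite sign. Of the 17 enzymes 16 had a negative difference, Tg minus WT, with a median of -0.11 beside -0.01 over all probe sets tested. Without overlap between the arrays, 10 of the 36 genes were lower in Tg cells (Hmgcs1, Mvk, Idi1, Sqle, Srebf2, Insig1, Stard4, Fasn, Acaca and Fads1), against 16.2% of all probe sets, and 2 were higher (Insig2 and Scd1), against 14.5%. Sqle read 10.89 and 10.97 in Tg cells and 11.12 and 11.35 in WT cells, a difference of -0.31 ± 0.13. Stard4 read 10.10 and 10.14 in Tg cells and 10.30 and 10.43 in WT cells, a difference of -0.24 ± 0.09. Scd1 read 11.55 and 11.28 in Tg cells and 11.22 and 10.59 in WT cells, a difference of 0.51 ± 0.23, which ran from 0.19 (without the WT array marked Rep) to 0.82 where 1 array was left out. Each of the 3 had a limma adjusted p of 1. All 4 T cell activation markers, too, were lower in Tg cells at 24 h, with a median of -0.07, and none passed the test.

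These differences at 0 h and 24 h together make the difference in the 24 h response, so the 3 are not separate results. Idi1 rose by 1.51 in Tg cells and 2.26 in WT cells at 24 h, a difference in response of -0.75 ± 0.18 (-0.43 over the unmarked arrays, -1.06 over those marked Rep). For Sqle the rises were 1.15 in Tg cells and 1.75 in WT cells, a difference of -0.60 ± 0.18. For Stard4 the difference was -0.32 ± 0.13, and for Insig2 it was 0.32 ± 0.13. The median over the 17 enzymes was -0.15, with 15 of 17 negative. For the 4 activation markers the median was -0.34, with 4 of 4 negative and none past the test. The limma adjusted p was 1 for each of these genes, so a smaller response in Tg cells was not established by this test.

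**Figure D4:**
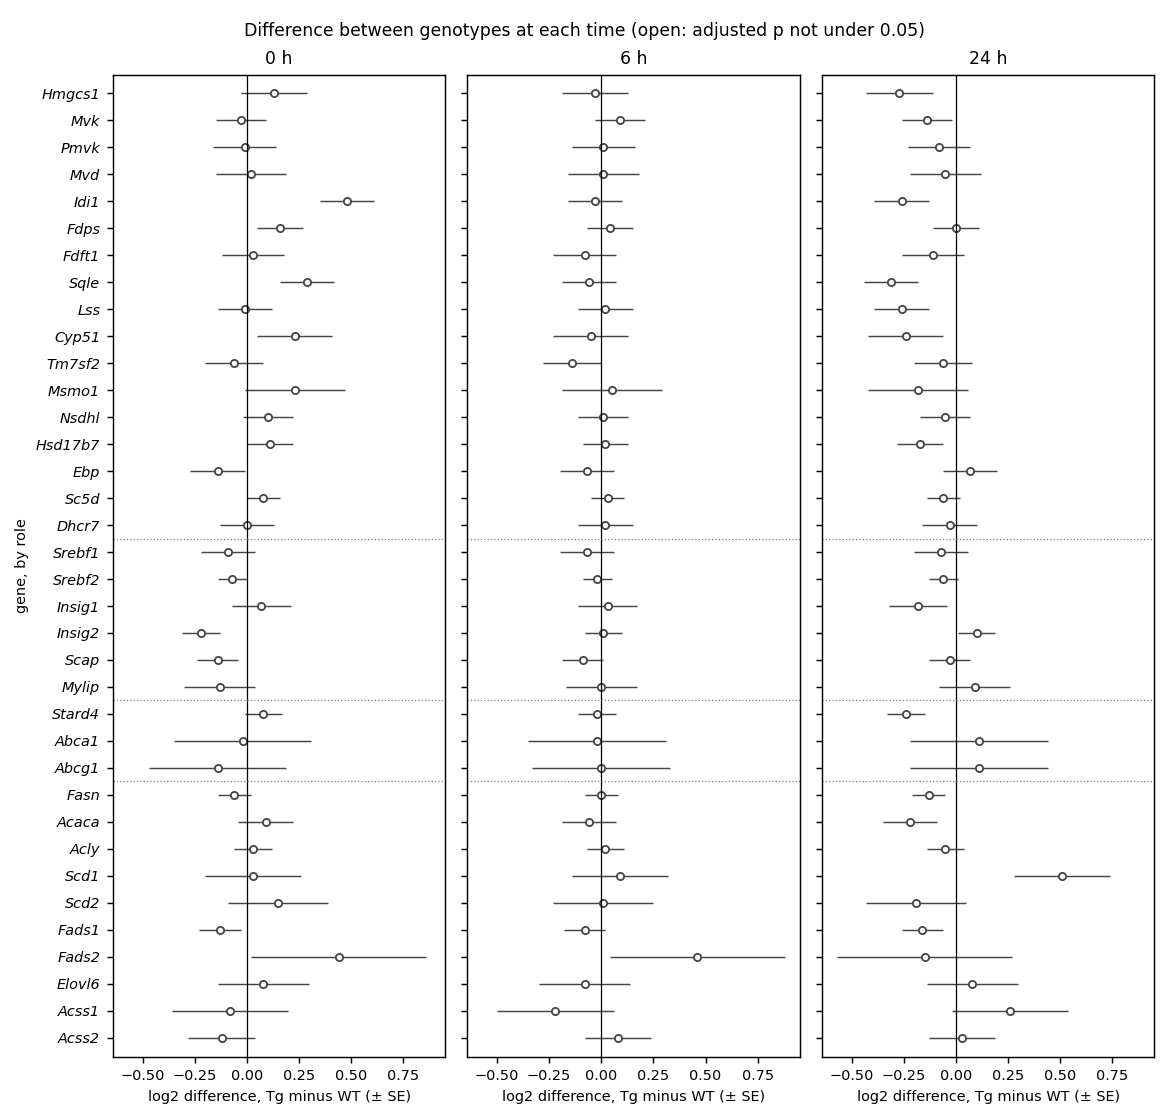
Log2 difference, Tg minus WT (x axes, with SE bars), of the 36 genes (rows, by role) at 0, 6 and 24 h. All symbols are open because no gene had an adjusted p under 0.05. Idi1 and Sqle lie to the right at 0 h and to the left at 24 h, and most differences at 6 h are within 0.15 of zero.

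Other genes of the same pathways were followed through lists of further genes. Their counts are to be read against all probe sets tested. At 6 h 12.5% of these rose and 12.9% fell in Tg cells, and 12.6% rose and 13.9% fell in WT cells. Of the same probe sets, 12% rose and 11.8% fell at 24 h against 0 h in Tg cells, and 12.9% rose and 13.8% fell in WT cells. Of 16 measured among 21 other isoprenoid and sterol genes, 7 rose and 4 fell at 6 h in Tg cells, and 7 rose and 3 fell in WT cells, and at 24 h against 0 h 5 rose and 3 fell in Tg cells and 7 rose and 4 fell in WT cells. Their median difference at 24 h was 0.25 in Tg cells and 0.39 in WT cells, where all probe sets tested had -0.01 in Tg cells and -0.02 in WT cells. Tmem97, a sterol-binding membrane protein, rose at 24 h by 2.35 ± 0.25 in Tg cells and 2.60 ± 0.25 in WT cells. Acat1, the thiolase of mitochondria, rose by 1.05 in Tg cells and 0.94 in WT cells, and Fntb, a farnesyltransferase subunit, rose by 0.92 in Tg cells and 0.96 in WT cells. Mbtps1, a protease that cuts SREBP, fell by 0.40 in Tg cells and 0.53 in WT cells, and Lbr, a sterol reductase of the nuclear envelope, fell by 0.39 in each. Rnf139, a ubiquitin ligase of the endoplasmic reticulum, fell by 0.55 in WT cells and did not pass the test in Tg cells. None of the 16 genes passed the test for a difference between genotypes in the 24 h response (-0.25 to 0.29).

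Of 11 LXR partners, LXR targets and oxysterol enzymes, none rose and 6 fell at 6 h in each genotype, and at 24 h 1 rose and 4 fell in each, while 12.9% of all probe sets tested fell at 6 h in Tg cells and 13.9% in WT cells. Their median difference was -0.41 in Tg cells and -0.39 in WT cells at 6 h, and 0.05 in Tg cells and -0.15 in WT cells at 24 h. Smpdl3a, a phosphodiesterase known as an LXR target in human macrophages, fell at 24 h by 1.22 ± 0.31 in Tg cells and 1.45 ± 0.31 in WT cells. Abca7, a lipid transporter, fell by 0.79 in Tg cells and 1.09 in WT cells, and Cyp27a1, an oxysterol-making enzyme, fell by 0.78 in Tg cells and 0.66 in WT cells. Rxra, the partner receptor of LXR, fell at 6 h, with differences of -0.41 in Tg cells and -0.52 in WT cells. At 24 h against 0 h it rose, by 0.73 ± 0.12 in Tg cells and 1.02 ± 0.12 in WT cells.

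Of 9 genes of sterol uptake, lysosomal handling and esterification, 2 rose and 4 fell at 6 h in Tg cells and 2 rose and 3 fell in WT cells, and at 24 h 2 rose and 2 fell in Tg cells and 2 rose and 3 fell in WT cells. The share of the 9 that rose was near that of all probe sets. Their median difference at 24 h was -0.05 in Tg cells and 0.14 in WT cells. Lrp8, a lipoprotein receptor, rose at 24 h by 1.35 ± 0.23 in Tg cells and 1.22 ± 0.23 in WT cells. Scarb1 rose by 1.42 ± 0.32 in WT cells and did not pass the test in Tg cells. Npc2 rose by 0.42 ± 0.09 in Tg cells and did not pass it in WT cells. Lipa, the lysosomal acid lipase, fell by 0.88 in Tg cells and 0.98 in WT cells. Osbp fell by 0.45 in Tg cells and 0.43 in WT cells. Stard3 fell by 0.39 in WT cells and did not pass the test in Tg cells. None of the 9 genes passed the test for a difference between genotypes in the 24 h response (-0.47 to 0.19).

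Of 20 other genes of fatty acid synthesis and activation, 6 rose and 3 fell at 6 h in Tg cells and 6 rose and 4 fell in WT cells, and at 24 h 6 rose and 2 fell in Tg cells and 5 rose and 2 fell in WT cells, with a median difference of 0.18 in each. The share that fell at 24 h was not above that of all probe sets. Fabp5, a fatty acid binding protein, rose at 24 h by 1.66 ± 0.21 in Tg cells and 2.26 ± 0.21 in WT cells. Acsl5, which activates fatty acids to their CoA esters, rose by 1.24 in Tg cells and 1.36 in WT cells, and Hsd17b12, an enzyme of chain elongation, rose by 0.88 in Tg cells and 1.08 in WT cells. Elovl7, an elongase, fell by 0.72 in Tg cells and 0.61 in WT cells, and Mlxip, a glucose-sensing transcription factor, fell by 0.42 in each.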

How the data were processed

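Total RNA of 12 samples was hybridised to one-colour arrays. The deposited values were taken as log2 from their range of 3.49 to 15.38 over 28853 probe sets; the summary and normalisation behind them are not given in the sources used. Because array medians spread from 7.39 to 7.50, quantile normalisation between arrays was applied first. Signal over background was not analysed here, and the number of arrays limits the precision. Symbols came from the array annotation: 21789 probe sets had 1 symbol, 1621 several and 5443 none, and the 23410 with a symbol were tested. Idi1, Fdft1 and Acaca had several probe sets of their own.

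limma 3.58.1 (R 4.3.3) fitted 6 group means over the 12 arrays, with 6 residual and 3.05 prior degrees of freedom, and adjusted p-values within each of 12 comparisons. The procedure was run on simulated data with independent noise on each array. Those data did not hold the link between arrays of the same mark described next, and the outcome is not given here. Deviations of arrays with the same mark correlated between all 15 pairs of groups (0.138 to 0.591), so the mark Rep was taken to pair arrays. A fit with it as a block was run as an alternative. The main fit holds no such term, so its errors, p-values and calls do not use the pairing. Group and genotype were taken from the titles, since the source names of the WT samples also carry the word transgenic.

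Genes were given array by array where they had 1 of the 3 largest called differences of their role and direction in a comparison of times, or 1 of the 4 largest moderated statistics of a comparison that held both genotypes. Of the further lists, up to 3 genes per list and direction were named, by the size of the 24 h difference. The genes and lists were chosen with earlier results of these data known. Tables used pandas 2.3.3 and numpy 2.4.6, and plots matplotlib 3.10.9, under Python 3.11.15.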

Additional observations from a re-analysis of the deposited data

How the results depend on the processing

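Alternatives were the deposited values without further scaling, centring on the median, a filter on the 40% dimmest probe sets (all 36 genes stayed), trended and robust moderation, the mark Rep as a replicate block, the compared groups only (not run for the average over times, which uses all groups), the mean of a gene's probe sets, leaving out each array, and leaving out the 3 WT arrays marked Rep. Where an alternative leaves 1 array in a group, that array was assumed to vary like the others. Of the 124 calls over the 6 comparisons of times, 75 passed under every alternative, and no call changed direction. Counts moved by over 1.5 times, apart from single arrays left out, in WT comparisons alone. For WT at 24 h against 0 h this was without the 3 WT arrays marked Rep, where the calls over all probe sets tested fell as well. For WT at 24 h against 6 h the count was 9, with 14 under the replicate block and 2 with the compared groups only. Over all probe sets tested those counts were 3124, 4298 and 758. Leaving out single arrays moved a count by over 1.5 times for Tg at 24 h against 6 h (15 with all arrays, 7 to 16) and for WT at 24 h against 6 h (5 to 9), and otherwise gave 19 to 24 for Tg at 6 h against 0 h, 17 to 25 for Tg at 24 h against 0 h, 20 to 25 for WT at 6 h against 0 h and 24 to 30 for WT at 24 h against 0 h. Of the 24 h against 6 h calls, 6 in Tg cells (Dhcr7, Fasn, Acaca, Scd2, Fads1 and Acss1) and 1 in WT cells (Fads1) passed under every alternative. Beside Mvd, Ebp and Abcg1, whose values are given above, the replicate block gave a call to Hmgcs1 (adjusted p = 0.037) and Sc5d (0.046) for Tg at 24 h against 0 h, Tm7sf2 (0.025), Msmo1 (0.048) and Insig1 (0.042) for Tg at 24 h against 6 h, Srebf1 (0.047) and Fads2 (0.0078) for WT at 24 h against 0 h, and Hmgcs1 (0.01), Fads2 (0.012) and Elovl6 (0.007) for WT at 24 h against 6 h. No gene was called between genotypes under any alternative. Among the uncalled differences of Tg from WT at 6 h, Tm7sf2 (-0.14) ran from -0.35 to 0.07 without single arrays, Fads2 (0.46) from -0.09 to 1.02 and Acss1 (-0.22) from -0.50 to 0.06, and without the 3 WT arrays marked Rep Fads2 read -0.09 and Acss1 0.06. The cause of these shifts was not tested. No scaling moved the median of all probe sets by over 0.04. With 2 arrays a group, a difference between genotypes of the size seen here was not resolved from the spread between arrays.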

Other observations

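Of 15 genes of fatty acid oxidation, the pathway that burns what the synthesis genes make, 1 rose and 3 fell at 6 h in Tg cells and 1 rose and 6 fell in WT cells, and at 24 h against 0 h 2 rose and 1 fell in each genotype, with median differences of 0.16 in Tg cells and 0.01 in WT cells. Of all probe sets tested, 12.5% rose and 12.9% fell at 6 h in Tg cells, 12.6% and 13.9% in WT cells, and at 24 h 12% and 11.8% in Tg cells and 12.9% and 13.8% in WT cells, so the 24 h counts were near or below those shares. Hadh, a dehydrogenase of the oxidation cycle, fell at 6 h by 0.94 ± 0.15 in Tg cells (limma adjusted p = 0.0017) and by 1.04 ± 0.15 in WT cells (limma adjusted p = 0.00095). At 24 h it stood above its 0 h level, by 1.01 ± 0.15 in Tg cells (limma adjusted p = 0.0018) and by 1.03 ± 0.15 in WT cells (limma adjusted p = 0.0013). Eci1, an isomerase for unsaturated chains, rose at 24 h by 0.65 in Tg cells and 0.57 in WT cells. Acadm, the medium-chain acyl-CoA dehydrogenase, fell at 24 h by 0.52 in Tg cells and 0.67 in WT cells.

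For the 3 genes with 2 probe sets of their own, the second probe set rose at 6 h in both genotypes as the first did, but for Acaca the small differences between genotypes did not keep their order. For Idi1 the second probe set gave 2.10 in Tg cells and 2.60 in WT cells at 6 h against 0 h, and 0.47 for Tg minus WT at 0 h. For Fdft1 it gave 0.99 in Tg cells and 1.08 in WT cells at 6 h. For Acaca it gave 1.81 in Tg cells and 1.68 in WT cells at 6 h, and for Tg minus WT -0.14 at 0 h and -0.05 at 24 h, where the first gave 0.09 and -0.22. Its rise at 24 h against 0 h was 0.76 in Tg cells and 0.67 in WT cells on the second probe set, and 0.58 in Tg cells and 0.89 in WT cells on the first.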
